A study of Mus musculus with 17 samples.

Results

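Plasma cell-free RNA (cfRNA) of ground control (GC) mice was described from 5 libraries, GC 1 to GC 5, of the 17 libraries in the series. Members were chosen by their label, Ground control, and every library with that label was used. All mice were wild-type C57BL/6J animals aged 13 weeks, and each library came from 1 mouse. The other libraries came from mice flown on the International Space Station, 6 under artificial gravity (AG, labelled Artificial-1G) and 6 in microgravity (MG), and serve here only as a comparison. GC mice stayed on the ground and received no other labelled treatment. Blood was drawn from the inferior vena cava into EDTA, debris was removed, and libraries were made with a small RNA kit because the RNA was degraded. The files cannot tell whether a fragment travelled free, in a vesicle, on protein or in a remaining blood cell, and fewer cells of a type cannot be told apart from less RNA per cell.

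Plasma carries RNA that leaves cells when they die or secrete. Much of it is short and structured, protected by bound proteins: Y RNAs sit in ribonucleoprotein particles with the Ro60 protein, U1 small nuclear RNA (snRNA) recognises the start of introns in the spliceosome, 7SL RNA is the backbone of the signal recognition particle that steers nascent proteins to the endoplasmic reticulum, and 5S ribosomal RNA (rRNA) is part of the large ribosomal subunit. MicroRNAs (miRNAs) silence mRNAs that match their seed. Small nucleolar RNAs (snoRNAs) guide chemical modification of rRNA and are cut from introns of host genes. Anucleate blood cells, erythrocytes and platelets, retain mRNA from their precursors.

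The sequences of the RNAs on which the description turns are shown first, all on GRCm38 (mm10). Rny1 and Rny3 are the mouse Y RNA genes, and capitals mark the bases at which each differs from the other, with 80 of the 112 bases of Rny1 identical. Rny1 lies on the minus strand at chr6:47788069-47788180 and Rny3 on the plus strand at chr6:47781624-47781725 (GENCODE M21).
Rny1: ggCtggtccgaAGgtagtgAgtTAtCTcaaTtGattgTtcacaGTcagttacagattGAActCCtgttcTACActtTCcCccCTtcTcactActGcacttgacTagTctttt
Rny3: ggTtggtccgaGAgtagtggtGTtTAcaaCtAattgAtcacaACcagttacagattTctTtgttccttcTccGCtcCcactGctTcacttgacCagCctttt

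A pair of 5S rRNA genes is shown because one of them, n-R5s185 at chr4:53860652-53860770 on the plus strand, lies inside an exon of the gene with the most counts, Tmem38b. The other, n-R5s194 at chr3:4338998-4339116 on the plus strand, had the most reads of its own among the 5S genes. Capitals mark the 9 of 119 bases that differ, and all other bases are identical.
n-R5s185: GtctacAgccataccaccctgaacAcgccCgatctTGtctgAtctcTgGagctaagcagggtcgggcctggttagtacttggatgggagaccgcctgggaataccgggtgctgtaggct
n-R5s194: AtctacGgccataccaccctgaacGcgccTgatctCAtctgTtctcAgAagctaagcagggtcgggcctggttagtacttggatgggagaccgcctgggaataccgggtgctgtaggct

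Gm22513, at chr12:54696782-54696945 on the plus strand, is the snRNA gene with the most reads, and the capital marks the 1 base of 164 at which it differs from Rnu1a1, a gene of U1 snRNA. Snord50a, at chr9:88521529-88521600 on the minus strand, stands for the snoRNAs that lie whole inside an exon of a counted host gene, here 1 of the 6 annotated transcripts of Snhg5. Its capitals mark the TGATGA and CTGA letters of the C and D boxes that name this snoRNA class.
Gm22513: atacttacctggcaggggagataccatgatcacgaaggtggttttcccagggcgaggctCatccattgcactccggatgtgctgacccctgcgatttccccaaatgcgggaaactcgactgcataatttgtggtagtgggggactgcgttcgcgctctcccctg
Snord50a: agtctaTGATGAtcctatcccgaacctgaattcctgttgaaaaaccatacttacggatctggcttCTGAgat

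Of the 10 miRNA genes with the most reads, 6 have a mature sequence shown here from RefSeq (GRCm38.p6), with the seed, bases 2 to 8, in capitals. The 3 let-7 miRNAs share the seed GAGGUAG, and the other 3 each have a seed of their own.
mmu-miR-6236: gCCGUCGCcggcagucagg
mmu-let-7b-5p: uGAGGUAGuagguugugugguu
mmu-let-7c-5p: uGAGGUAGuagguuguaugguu
mmu-let-7i-5p: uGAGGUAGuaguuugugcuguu
mmu-miR-30a-5p: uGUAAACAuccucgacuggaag
mmu-miR-451a: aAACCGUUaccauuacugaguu

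Read counts and RPKM values (reads scaled to gene length in kilobases and to the library's mapped reads) were deposited for 49585 genes. Counts summed to between 84657 (GC 1) and 195103 (GC 4) per GC library. For most genes of small and structural noncoding RNAs with reads, and for some long noncoding genes, pseudogenes and genes with no biotype, the count column was 0 but the RPKM was above 0, and reads were recovered from it. The rRNA gene Rn18s-rs5, in contrast, had counts. Recovered reads came to between 91969 and 160639 per GC library, 32.0% to 59.1% of all reads on genes, so the count column alone leaves out a large part of the RNA. Together the libraries held between 206973 and 336166 reads on genes, 5.28% to 13.0% of the mapped reads that RPKM implies. Counts were present for 7995 genes in GC and recovered reads for 342 further genes, but only 631 genes had a count in every GC library, and from 33.9% to 49.4% of the genes detected in a library rested on 1 read.

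Ground control plasma RNA was dominated by rRNA, by short structured RNAs and by 3 genes annotated as mRNA. Shares below are shares of all reads on genes, counts plus recovered reads, unless another denominator is named. The 3 genes annotated as mRNA, Tmem38b, Polr2m and Lars2, each exceeded 5% of the counts of at least 1 library of the series and together took 35.0% ± 10.8 (SD, n = 5, as for every GC value with ± below). With the 18S rRNA gene Rn18s-rs5, which passed the same limit, they are called the dominant genes. Small noncoding RNAs other than miRNA, snoRNA and snRNA took 16.97% ± 4.35, mitochondrial rRNA 15.2% ± 6.59, cytosolic rRNA 11.2% ± 1.89 and snRNA 4.69% ± 3.22. Nuclear mRNA outside the dominant genes came to 6.78% ± 0.956, on 7446 genes of which 578 had reads in every GC library. Long noncoding RNA took 5.66% ± 1.20, genes annotated as miRNA 2.24% ± 0.638, mitochondrial transfer RNA (tRNA) 0.607% ± 0.238 and mitochondrial mRNA 0.241% ± 0.0407. Genes of snoRNAs and of small Cajal body RNAs (scaRNAs), counted under their own names, took 0.112% ± 0.0467. Pseudogenes took 0.257% ± 0.102 and genes with no biotype 1.05% ± 0.152.

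**Figure D1:**
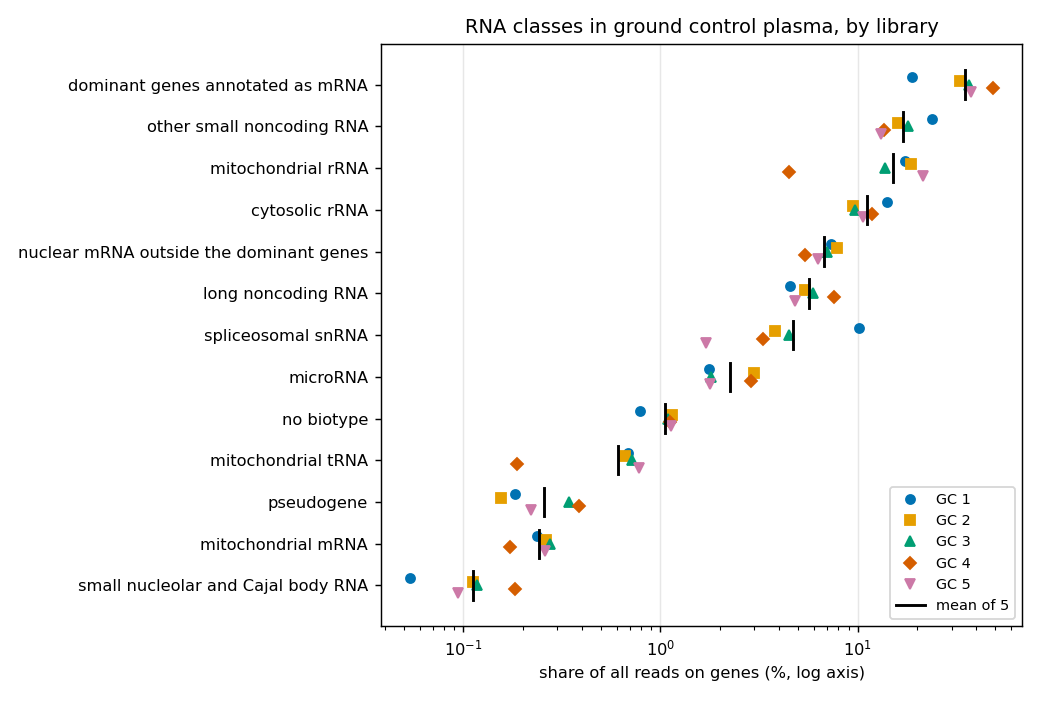
Share of all reads on genes (percent, log axis) for each RNA class, with 1 symbol per GC library and a black line at the mean of the 5 libraries. GC 4 lies apart on the low side for mitochondrial rRNA (4.49%) and mitochondrial tRNA (0.188%), and GC 1 on the high side for snRNA (10.2%).

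Few genes held most of the RNA of a library. It took between 2 and 4 genes to reach 50% of the reads of a GC library and between 24 and 34 genes to reach 90%.

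Tmem38b, which encodes an ion channel of the endoplasmic reticulum (chr4:53826045-53862019, plus strand), had the most reads. Its counts were 20928 in GC 1, 95083 in GC 2, 71379 in GC 3, 126083 in GC 4 and 101646 in GC 5. GC 1 was low and GC 4 high, and the mean share was 28.8% ± 12.1 of all reads and 51.2% ± 15.3 of the counts. An exon of Tmem38b holds the 5S gene n-R5s185 shown above whole and on the same strand, with 100% identity over 119 bases, in 1 of the 4 annotated transcripts. The gene n-R5s185 itself had 0 reads in all 5 GC libraries. Whether the reads of Tmem38b are 5S fragments was not tested, since the files do not place reads within a gene.

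Polr2m, named for a subunit associated with RNA polymerase II, had between 8924 and 12922 counts per GC library (4.09% ± 1.28 of all reads). Lars2, the mitochondrial leucyl-tRNA synthetase gene, had between 3504 and 7350 counts (2.10% ± 0.509). Neither holds an annotated small RNA gene inside an exon, and neither was compared with the 18S and 28S rRNA repeats here.

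Cytosolic rRNA was led by 1 gene. The 18S repeat gene Rn18s-rs5, which RefSeq lists as a pseudogene, took 12.6% of the reads in GC 1 and between 6.96% and 7.66% in GC 2 to GC 5. Its mean share was 8.38% ± 2.40. The 5.8S gene n-R5-8s1 took 0.744% ± 0.214. Reads fell on 33 of 180 annotated 5S genes, 2.04% ± 1.11 together. The 5S share was 0.624% in GC 1, 1.66% in GC 2, 2.14% in GC 3, 3.69% in GC 4 and 2.10% in GC 5, the same order at both ends as Tmem38b. Among single 5S genes n-R5s194 had from 626 reads (GC 1) to 3972 (GC 4), n-R5s195 from 277 to 1598 and n-R5s2 from 190 to 1126. By reads these were again lowest in GC 1 and highest in GC 4. On the RPKM scale each of them was highest in GC 5, with n-R5s194 at 8671 there and 6136 in GC 4. How reads that match several 5S copies were counted is not given in the sources used here, so the division among copies is uncertain.

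Mitochondrial RNA was mostly rRNA. The 16S gene mt-Rnr2 had 25787, 43690, 22486, 9808 and 50122 reads in GC 1 to GC 5, a share of 10.8% ± 4.604. The 12S gene mt-Rnr1 had 10176, 19160, 9523, 3082 and 19843 reads, a share of 4.37% ± 2.001. GC 4 was lowest and GC 5 highest for both.

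Per length, on the RPKM scale, the mitochondrial tRNAs stood far apart from one another. Of 22 mitochondrial tRNA genes, 17 had reads in GC and 11 had reads in every GC library. The serine tRNA gene mt-Ts2 reached an RPKM of 4794 ± 2555, with values from 857 in GC 4 to 7434 in GC 1, beside 4307 ± 2656 for mt-Rnr1. The histidine tRNA gene mt-Th, its neighbour in the genome, reached 1716 ± 1134, mt-Tg (glycine) 614 ± 391, mt-Tq (glutamine) 609 ± 356 and mt-Te (glutamate) 550 ± 321. These 5 were the mitochondrial tRNA genes with the most reads. In contrast mt-Tf (phenylalanine), mt-Tw (tryptophan), mt-Ty (tyrosine), mt-Ts1 (serine) and mt-Td (aspartate) had no read in any GC library.

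All 13 mitochondrial mRNAs were detected in every GC library. On the RPKM scale they lay below the rRNAs and the 5 leading tRNAs. By reads over the 5 libraries, however, mt-Co1 with 706 exceeded mt-Tq (654), mt-Tg (606) and mt-Te (562). The cytochrome c oxidase mRNAs led by reads, mt-Co1 with 94 to 204 and mt-Co2 with 60 to 190 per library, followed by the complex I mRNAs mt-Nd5 (73 to 97) and mt-Nd4 (35 to 92) and by mt-Atp6 of the ATP synthase (30 to 76). On the RPKM scale mt-Co2 reached 58.4 ± 34.1 and mt-Co1 28.9 ± 13.6, against 6415 ± 3968 for mt-Rnr2. The lowest were complex I mRNAs, with mt-Nd1 at 6.45 ± 2.57 and mt-Nd2 at 6.24 ± 0.748.

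Short structured RNAs other than rRNA were led by Rny1. It had 36510 reads in GC 1, 26253 in GC 2, 15097 in GC 3, 8419 in GC 4 and 10456 in GC 5. As a share of reads this was 17.6% in GC 1 and 2.93% in GC 4, with a mean of 7.61% ± 5.98, and the libraries did not form a tight group. Rny3 had 772, 1260, 1135, 334 and 1588 reads, far fewer, and GC 1 was not its highest library. Both Y RNA genes together took 7.98% ± 6.01. Rny1 also had the highest RPKM of the genes shown here, with a lowest value of 13819, a median of 34230 and a highest value of 204245.

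Among 7SL genes, Rn7s6 held the most reads. It had 5546 reads in GC 1 and between 10937 and 14141 in the other 4, a share of 4.02% ± 1.03. The named 7SL genes Rn7s1, Rn7s2 and Rn7s6 together took 5.09% ± 0.917, lowest in GC 1 at 3.75%. Rn7s1 did not share that order, with 0.913% in GC 1 and 0.862% in GC 4. Gm23153, 95.2% identical to Rn7s1 over 208 bases and annotated without a family name, added 3.09% ± 1.25. The RNase P and RNase MRP RNAs, catalytic RNAs that cut tRNA and rRNA precursors, took 0.480% ± 0.122, nearly all of it Rpph1 (RNase P) at 0.473% ± 0.121. Vault RNA (Vaultrc5) took 0.169% ± 0.0317 and 7SK RNA, which holds back transcription elongation, 0.0504% ± 0.0298.

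**Figure D2:**
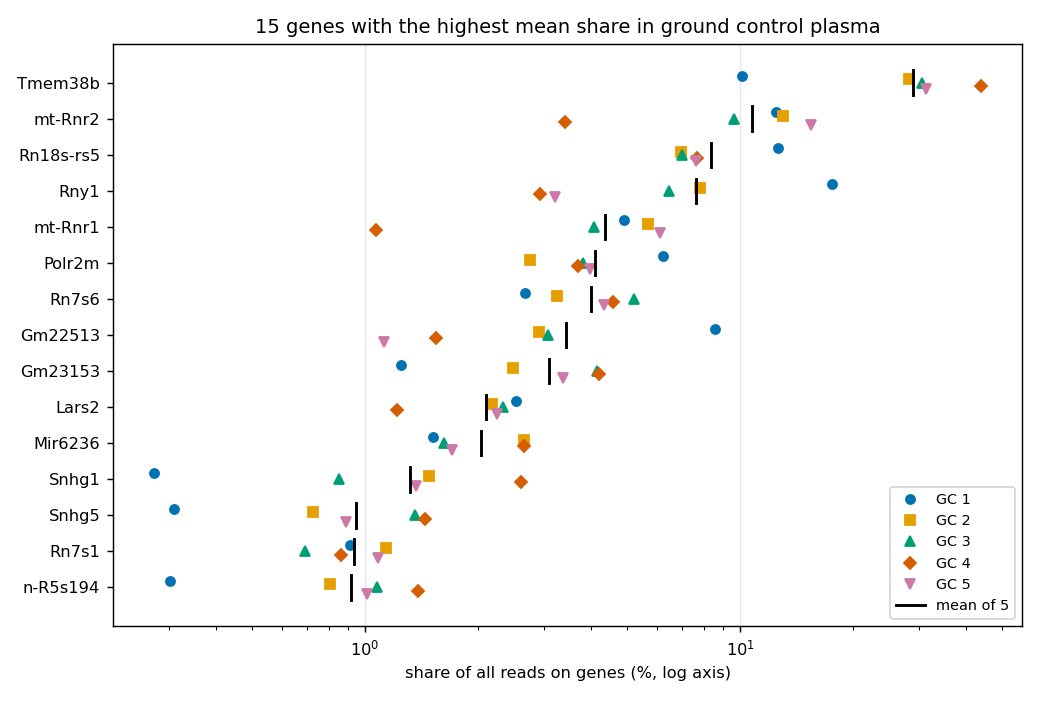
The 15 genes with the highest mean share of all reads on genes (percent, log axis) among the leading counted and recovered genes, with 1 symbol per GC library and a black line at the mean. Rny1 and Gm22513 were highest in GC 1 (17.6% and 8.56%), whereas Tmem38b, Snhg1 and n-R5s194 were lowest there.

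Spliceosomal snRNA was mostly U1. Gm22513 had 17714, 9789, 7204, 4445 and 3651 reads in GC 1 to GC 5 and a share of 3.45% ± 2.98, with GC 1 well above the others. The next gene, Gm24830, 98.2% identical to the U1 gene Rnu1b1 over 166 bases, took 0.411% ± 0.278 and was likewise highest in GC 1. Rnu1b1 itself had 68 to 154 reads, and Rnu1a1 had 0 in every GC library although it differs from Gm22513 by 1 base. How reads were divided among such copies is not given in the sources used here, so the family is better measured than its members.

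Gm23143, 95.3% identical to the U5 gene Rnu5g over 106 bases, had 26 reads in GC 1, 72 in GC 2, 1283 in GC 3, 2884 in GC 4 and 66 in GC 5, an order unlike that of U1. Its coefficient of variation (CV, SD over mean) across the 5 libraries was 148%. Gm25099, 98.0% identical to Rnu5g over 98 bases, had between 90 and 583 reads. U5 snRNA holds the exon ends together during splicing. Gm25189, in contrast, is 96.9% identical to the U1 gene Rnu1a1 over 163 bases. It had 380, 301, 201, 90 and 61 reads in GC 1 to GC 5.

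Genes annotated as miRNA held few reads in these small RNA libraries. The class held 2.24% of the reads, but 2.03% ± 0.574 belonged to a single gene, Mir6236 (chr9:110281287-110281409, plus strand), with 3152 to 8941 reads per library. Without Mir6236 the class came to 0.207%. Mir6236 was not compared with the 18S and 28S rRNA repeats here, so whether its reads are rRNA fragments was not tested. The deposited values belong to the whole annotated hairpin, so arms cannot be told apart.

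The remaining miRNAs had far fewer reads. Mir143, known from smooth muscle, had 90, 313, 52, 85 and 8 reads in GC 1 to GC 5. Mir30a had 26 to 107 reads and Mir5099 50 to 117. The 3 let-7 genes with the shared seed had 261 (Mirlet7b), 154 (Mirlet7i) and 128 (Mirlet7c-2) reads over the 5 libraries. Mir451a, abundant in erythroid cells, had 14, 78, 7, 108 and 15 reads, and GC 2 and GC 4 were the high libraries. Mir122, abundant in hepatocytes, had 10 to 86 reads, and Mir320 2 to 28. Of 2147 annotated miRNA genes 57 had reads in GC, and 22 had reads in every GC library.

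Host genes of snoRNAs made up much of the remaining counts. Among counts on annotated nuclear genes outside the dominant genes, 40.6% ± 15.1 fell on 188 genes with a small RNA gene wholly inside an exon on the same strand. The share was 20.2% in GC 1, 38.8% in GC 2, 38.8% in GC 3, 62.6% in GC 4 and 42.4% in GC 5. Most of it, 37.3% ± 15.4, came from 56 genes that hold a snoRNA or scaRNA gene. Of the 30 counted genes with the highest mean share outside the dominant genes, 10 had a small RNA gene of any class inside an exon. Genes with a small RNA gene in introns only held 4.90% ± 0.438.

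The leading hosts were noncoding. Snhg1, with 8 small RNA genes inside its exons, had 568 counts in GC 1, 4971 in GC 2, 1995 in GC 3, 7476 in GC 4 and 4458 in GC 5. Snhg5, with 2 including the Snord50a shown above, had 640, 2451, 3171, 4140 and 2897 counts. Gas5, with 10, had 536, 2339, 1398, 2961 and 2387 counts. By counts these 3 were highest in GC 4, as Tmem38b was, and all 3 were lowest in GC 1. On the RPKM scale these genes and Tmem38b were highest in GC 5, with Snhg5 at 523.9 there and 439.9 in GC 4. Snhg20 did not follow them, with 389, 676, 363, 243 and 130 counts in GC 1 to GC 5. Among long noncoding genes without a small RNA gene in an exon on the same strand, whose counts were 0 and whose reads were recovered from RPKM, Gm37194 had 1859 to 2176 recovered reads, 0.553% to 1.04% of all reads. Gm28872, which carries the letters of the minor spliceosomal RNA gene Rnu11 on the opposite strand (134 bases, 100% identical), had 3348, 2404, 2225, 914 and 727 recovered reads in GC 1 to GC 5. The antisense gene Gm15564 had 203 to 560 counts. Most pseudogene reads lay on Gm12896, with 314 to 1057 per library, and the next 4 pseudogenes had 13 to 16 reads over the 5 libraries. Among genes with no biotype, AC122546.1 had 1132 to 2865 reads, AC157822.1 111 to 290, Rnu3a_1 91 to 272, Snhg4 7 to 94 and 9430076C15Rik 27 to 67.

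Coding hosts had fewer counts. Rack1, which encodes a protein of the small ribosomal subunit, had 256 to 779 counts, and Eif4a2, a translation initiation helicase, had 203 to 532. Taf1d, with 10 small RNA genes in its exons, had 19 counts in GC 1 and between 99 and 289 in the others. Rpl5, a ribosomal protein gene that holds Snord21, had 12 in GC 1 and between 84 and 239 in the others. Vmp1, an autophagy gene whose exon holds Mir21a, had 61 to 186. As shares of all reads these 5 genes were highest in GC 4, while Taf1d, Rpl5 and Vmp1 were lowest in GC 1 and Rack1 and Eif4a2 in GC 3.

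A small RNA gene inside an exon of a counted gene had no reads under its own name. This held for all 115 such snoRNA and scaRNA genes, all 157 such miRNA genes and all 4 such rRNA genes in GC. Genes elsewhere seldom had reads either, with 19 of 1380 snoRNA and scaRNA genes (1.38%), 57 of 1990 miRNA genes (2.86%) and 43 of 349 rRNA genes (12.3%), and the difference was not tested. The leading snoRNA genes were Snord118 (U8, needed for the maturation of 5.8S and 28S rRNA) with 76 to 258 reads per library Snord104 with 5 to 107, Scarna2 with 8 to 69, Scarna17 with 8 to 50 and Snora17 with 4 to 21. How reads shared by overlapping genes were counted is not given in the sources used here.

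**Figure D3:**
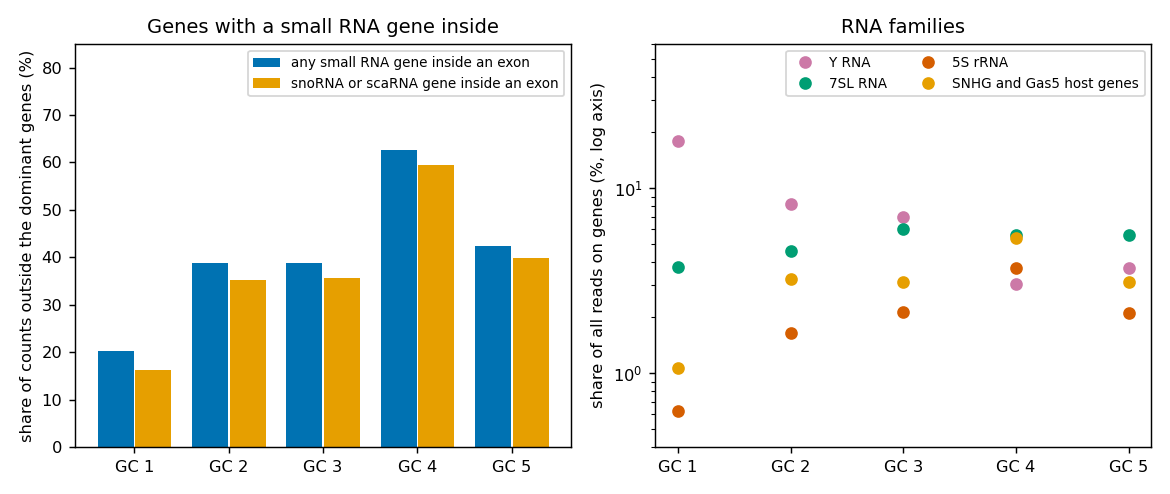
Left, share of counts on nuclear genes outside the dominant genes (percent) that fell on genes with any small RNA gene, or with a snoRNA or scaRNA gene, inside an exon, with 1 pair of bars per GC library. Right, share of all reads on genes (percent, log axis) of Y RNA, 7SL RNA, 5S rRNA and the SNHG and Gas5 host genes. The last are 18 genes picked by name, not the set of the left panel. Y RNA was highest in GC 1 (18.01%), whereas 5S rRNA and the SNHG and Gas5 host genes were lowest in GC 1 and highest in GC 4.

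Among marker lists, those of erythroid cells and platelets held the most mRNA reads. Marker lists of 18 possible source tissues or cell types, 283 gene names in all, were read as a share of reads on nuclear mRNA outside the dominant genes, between 15125 and 26480 reads per library. Erythroid markers took 9.90% ± 4.68 and platelet markers 4.59% ± 2.01. No other list reached 0.5% on average.

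Globin mRNAs carried the erythroid share. Hba-a2 (alpha globin) had 1117, 638, 752, 417 and 718 counts in GC 1 to GC 5, and Hbb-bs (beta globin) 647, 469, 334, 111 and 324. By counts GC 1 was highest and GC 4 lowest for both. As a share of reads outside the dominant genes, Hba-a2 was lowest in GC 2 (0.317%, against 0.334% in GC 4). Hbb-bt had 157 to 444 counts and Hba-a1 91 to 288, and the globin paralogs share sequence, so the division among them is uncertain. Of 34 erythroid genes in the files, 28 had reads in GC and 14 had reads in every GC library. Beyond the globins the 14 included Alas2, the first enzyme of heme synthesis in red cells, with 186 reads over the 5 libraries, Bnip3l, which drives mitochondrial clearance in reticulocytes, with 89, and Bpgm, the enzyme of 2,3-bisphosphoglycerate, with 87. The transcription factor Klf1 had 0 reads and Gata1 had 2.

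Platelet markers were complete. All 22 genes of the list had reads in GC, and 16 had reads in every GC library. Ppbp, the precursor of a platelet granule chemokine, had 369, 680, 380, 96 and 604 counts. Gng11, a G protein subunit, had 98, 146, 99, 24 and 158, and Nrgn (neurogranin) 37, 100, 40, 18 and 107. Plek (pleckstrin, a substrate of protein kinase C in platelets) had 54, 101, 40, 11 and 93. GC 4 was lowest for each of these 4. The integrin genes Itgb3 and Itga2b had 111 and 79 reads over the 5 libraries, Pf4 160 and P2ry12, the platelet ADP receptor, 161. The list's share was 5.16% in GC 1, 5.39% in GC 2, 4.41% in GC 3, 1.32% in GC 4 and 6.69% in GC 5.

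Leukocyte markers were few. Myeloid markers took 0.214% ± 0.0736, with reads on 12 of 27 genes, and 2 genes held most of them, Lyz2 (lysozyme) with 115 reads over the 5 libraries and Fcer1g (a shared Fc receptor chain) with 64. Among neutrophil genes of the list Mmp9 had 4 reads over the 5 libraries, S100a8, Csf3r and Mmp8 3 each, S100a9 and Prtn3 2 each and Ngp and Lcn2 1 each, while Mpo, Elane, Camp and Ltf had 0. Lymphoid markers took 0.0840% ± 0.0246, with immunoglobulin kappa (Igkc) at 25 reads in all, of which GC 3 held 9, followed by Ighm with 15, Cd74 with 8 and Lck and Pax5 with 6 each.

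Solid tissues left traces. Liver markers took 0.146% ± 0.0197, with reads on 23 of 32 genes, and albumin (Alb) had 1, 6, 4, 3 and 8 reads in GC 1 to GC 5. Over the 5 libraries Trf (transferrin) had 17 reads, the apolipoprotein genes Apoa1 and Apob 14 and 13 and Cyp2e1 10. Skeletal muscle markers took 0.0976% ± 0.0584, with titin (Ttn) at 29 reads in GC 2 and between 1 and 6 in the others. Heart muscle also expresses Ttn, which held 45.4% of the list's reads, and GC 2 had the most heart marker reads too. Myh4 had 17 reads over the 5 libraries, Mb 10, Acta1 7 and Ckm 5. Heart markers were uneven, with 83 reads in GC 2, 43 in GC 4 and 2 to 11 in the other 3, led by the cardiac myosin gene Myh6 at 25 reads in GC 2 and 13 in GC 4. Actc1 (cardiac actin) followed with 30 reads over the 5 libraries, Tnnt2 with 17, Mybpc3 with 13 and Tnni3 with 12. Endothelial markers had 108 reads, of which 51 were Vwf, a gene that platelet precursors also express. Pecam1, which platelets express too, had 14, Egfl7 13 and Cdh5 and Flt1 7 each. Bone and cartilage markers had 132 reads, nearly all from the type I collagen genes Col1a1 (80) and Col1a2 (47). Of the other genes of this list Ibsp and Col2a1 had 2 reads each and Acan 1, while Bglap, Sp7 and Dmp1 had 0. The list's share therefore rests on type I collagen.

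Other tissues were near or below what this depth can show. Brain markers had 29 reads over the 5 libraries, kidney 6, pancreas 5, adipose 5, skin 4, intestine 2 and retina 1. Lung and testis germ cell lists had 0 reads, which allows up to 3 reads, or 0.0113% to 0.0198% of nuclear mRNA, per library. These limits cover counting error only.

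Abundant mRNAs outside any list included Tmsb4x, the actin-binding thymosin beta 4, with 172 to 943 counts, Actb (beta actin) with 65 to 290, B2m with 74 to 311 and Fth1 (ferritin heavy chain) with 50 to 332. These 4 were lowest in GC 4, as the platelet markers were. Inafm2 had 438 to 787 counts and Yipf1 274 to 1671, with GC 1 lowest and GC 4 highest for Yipf1. Gm20594, annotated as coding, is 88.5% identical to mt-Rnr2 over 435 bases and had 56 counts in GC 4 and 179 to 324 in the others.

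The 5 libraries differed by more than counting error for most genes. Of 145 genes outside the dominant genes with at least 10 reads in each GC library, 141 had a CV of share above that expected from counting alone, and the median CV was 44.3% against 9.51% from counting. The CV was taken over shares of reads outside the dominant genes. Of the 4 genes that did not exceed counting error, Epb41, Ube2o and Gm24265 were also among the 5 lowest, and the other was Cald1. Only Epb41 (10.4%), Ube2o (13.6%), the poly(A)-binding protein gene Pabpc1 (13.9%), the snRNA gene Gm24265 (14.9%) and Vaultrc5 (15.9%) were at 16% or below. The most variable were the 5S gene n-R5s193 (189%, with 2734 reads in GC 4 and 62 to 215 in the others), Gm23143 (148%), Cep85 (101%), Tnpo2 (94.2%) and Mirlet7i (82.6%). The median CV was 30.5% over 10 mitochondrial mRNAs and 44.3% over 63 nuclear mRNAs, a difference that was not tested. Whether this spread is between animals, samplings or library preparations was not tested, since each mouse has 1 library.

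**Figure D4:**
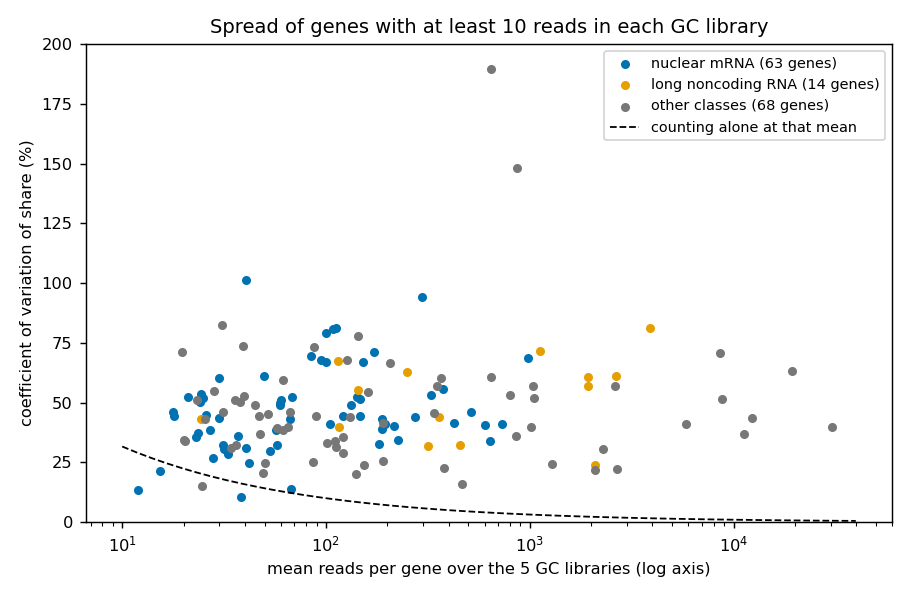
Coefficient of variation of a gene's share over the 5 GC libraries (percent) against its mean reads (log axis), with 1 point per gene and a dashed line for counting error at that mean. Of 145 genes 141 exceed the value expected from counting in their own libraries, with a median of 44.3%.

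Across genes, Spearman correlations between pairs of GC libraries ranged from 0.423 (GC 1 with GC 4) to 0.647 (GC 3 with GC 5), with a median of 0.589 over 10 pairs. Each pair was compared over 441 to 734 genes, which are not independent. Chi-square per degree of freedom against counting error alone was at least 5.46 in every pair, so no 2 files look like 1 library deposited in duplicate.

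Shares of 7 RNA classes and 6 marker lists were then set against AG and MG, 26 comparisons in all, by exact two-sided permutation tests of the mean log2 share. None had an adjusted p (Benjamini-Hochberg over 26) under 0.05, and 2 had an unadjusted exact p under 0.05. The smallest p that 5 against 6 libraries allow is 0.00216, which as a single lowest value among 26 becomes 0.0563, so no comparison could pass on its own. A p above the threshold does not show the groups to be alike.

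The largest separation was for snoRNA and scaRNA genes under their own names. Shares in GC were 0.0536%, 0.112%, 0.117%, 0.183% and 0.0944% in GC 1 to GC 5, whereas the lowest AG library was at 0.0299%, the median at 0.0408% and the highest at 0.0526%. GC and AG did not overlap, and the GC mean on the log2 scale was higher by 1.39, 2.61-fold (exact permutation p = 0.00216, adjusted p = 0.0563). This depended on the setting. With the dominant genes left out, no class comparison with AG had an exact permutation p under 0.0238, and with shares of summed RPKM none under 0.0260. Across the alternatives the adjusted permutation p for snoRNA and scaRNA genes against AG ranged from 0.0563 to 0.619. MG ranged from 0.0429% to 0.565% around GC (log2 difference -0.04, exact permutation test, adjusted p = 0.998).

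Nuclear mRNA outside the dominant genes was at 5.401% to 7.88% in GC, against 3.97% to 5.83% in AG, so the groups overlapped. The log2 difference was 0.52, 1.43-fold (exact permutation p = 0.0130, adjusted p = 0.169). For erythroid markers the mean was 9.90% in GC, 14.4% ± 4.36 in AG and 7.86% ± 3.77 in MG, and the exact permutation test gave an adjusted p of 0.689 against AG and 0.807 against MG. Platelet markers were at 2.67% ± 1.82 in AG and 3.38% ± 1.48 in MG (exact permutation test, adjusted p = 0.689 and 0.807).

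Liver markers were even in GC, from 0.127% to 0.174%. In AG they ranged from 0.0481% to 2.55% and in MG from 0.0401% to 3.77%. The exact permutation test gave an adjusted p of 0.807 against AG and 0.689 against MG, and the difference in spread was not tested.

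**Figure D5:**
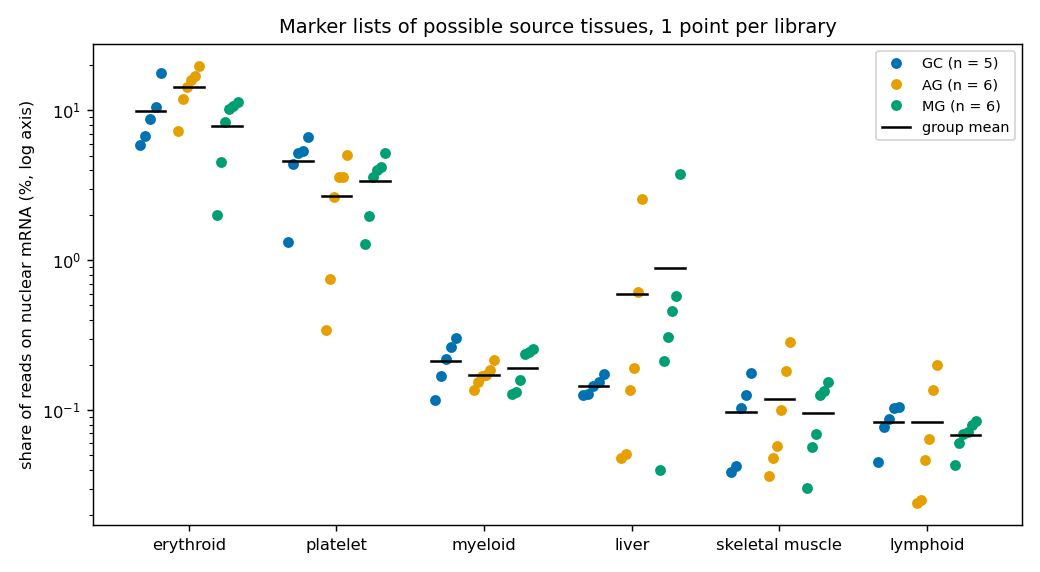
Share of reads on nuclear mRNA outside the dominant genes (percent, log axis) for 6 marker lists, with 1 point per library and a black line at the group mean, for GC (5 libraries), AG (6) and MG (6). Mean erythroid and platelet shares lie above the means of the other lists in all 3 groups, while liver spans 0.127% to 0.174% in GC and reaches 2.55% in an AG and 3.77% in an MG library.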

How the data were processed

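Plasma cfRNA libraries of 17 mice (5 GC, 6 AG, 6 MG) were analysed. The authors made libraries with the NEBNext Small RNA kit, sequenced them with paired reads of 36 bases, and mapped and quantified them in CLC Genomics Workbench on mm10. The authors deposited raw counts per gene. The deposited RPKM is scaled to gene length and mapped reads, and the deposited TPM was not used. Multiple mapping and strand settings are not given in the sources used here.

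Genes were matched by symbol to GENCODE M21 (47147 of 49585) for class and length, and a symbol held by several genes took the one whose length matched the values. For genes with count 0, reads were recovered as RPKM times length times the mapped total; 98.8% of 3360 values with a GENCODE length were whole within 0.005. For 36 genes the length was inferred as the smallest giving whole reads, and these held 2.18% of the recovered GC reads. Reads without molecular identifiers are not independent molecules, so counting errors are lower bounds.

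Tests were exact permutations of log2 shares in Python 3.11.15 with NumPy 2.4.6, adjusted over 26. Transcripts were compared with BLAST+ 2.17.0 and Biopython 1.88. The scripts were tested on simulated data. Genes were named by rule: the 15 leading by counts, the 10 leading by recovered reads, the 5 leading in each class, list and end of the CV ranking, and the 10 leading miRNAs. For brain and smaller lists and the pseudogenes after the first, totals stand in place of single genes. Others, such as Rny3, Rnu1a1, Rnu1b1, n-R5s185, Gm20594, Cald1, further host genes (Snhg20, Eif4a2, Taf1d, Rpl5, Vmp1), abundant mRNAs (Actb, B2m, Fth1), other mitochondrial genes and further marker genes, were named after their values were seen. Members, lists and tests were chosen with earlier results of these data known. Alternatives were counts alone, denominators, a minimum of 5 reads, RPKM shares, the leading gene left out, shares without log2, a replicate block and each library left out; leaving out Mir6236 was added after seeing the data.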

Additional observations from a re-analysis of the deposited data

Results flagged for a closer look

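In 12 of 108 values tested in GC, 1 library stood apart from the other 4 by more than Dixon's limit. Chance alone flags about 1 in 20 of independent normal values, here 5.4. These values are not independent, since classes were tested beside their own genes, so 12 cannot be set strictly against 5.4. All 12 lay in GC 1 (6) or GC 4 (6).

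In GC 1, Rn18s-rs5, the 18S repeat gene, held 12.6% of reads (next 7.66%), the U1 gene Gm22513 8.56% (next 3.08%) and the U1 gene Gm24830 0.888% (next 0.380%). GC 1 was low for genes with no biotype at 0.784% (next 1.09%) and for AC122546.1 among them at 0.547% (next 0.852%). It was high for 9430076C15Rik at 0.0324% (next 0.0120%).

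In GC 4, mitochondrial tRNA held 0.188% (next 0.663%), mt-Ts2 0.0958% (next 0.338%) and mt-Te 0.0139% (next 0.0452%). The platelet gene Ppbp was at 0.0334% (next 0.163%) and Lars2 at 1.22% (next 2.19%). The host gene Eif4a2 was high at 0.185% (next 0.104%). GC 1 had the fewest counts of the 5 libraries and GC 4 the most, and the part of depth in these values was not tested.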

How the results depend on the processing

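No alternative brought an adjusted p of the 26 comparisons under 0.05, and the smallest was 0.0563. The values below are mean percent shares in GC, or log2 differences for comparisons. Sizes of shares depended on the denominator and on length scaling by construction. At this depth, lists with few reads have wide counting error.

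From counts alone, the dominant genes annotated as mRNA took 63.3%, cytosolic rRNA 16.4%, nuclear mRNA 13.0%, mitochondrial mRNA 0.461%, pseudogenes 0.0280% and genes with no biotype 0.177%. With the 4 dominant genes, Rn18s-rs5 included, left out of both the classes and the denominator, cytosolic rRNA took 5.31%, nuclear mRNA 12.04%, mitochondrial mRNA 0.429%, mitochondrial rRNA 26.1%, mitochondrial tRNA 1.05%, miRNA 4.13%, snoRNA and scaRNA 0.213%, snRNA 7.98%, other small RNA 29.8%, long noncoding RNA 10.5%, pseudogenes 0.484% and no biotype 1.92%. As shares of summed RPKM these classes were, in the same order, 15.3%, 1.39%, 0.120%, 4.89%, 4.10%, 8.47%, 0.432%, 11.6%, 40.9%, 2.88%, 0.482% and 5.22%, and the dominant mRNA-annotated genes 4.32%. Without Mir6236, added after seeing the data, miRNA took 0.207%.

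For marker lists, shares of all reads were 0.685% (erythroid), 0.321% (platelet), 0.0146% (myeloid), 0.00566% (lymphoid), 0.00984% (liver), 0.00684% (skeletal muscle), 0.00215% (brain), 0.00802% (endothelium) and 0.00995% (bone and cartilage). Shares of summed RPKM were 25.6% (erythroid), 7.13% (platelet), 0.389% (myeloid), 0.171% (lymphoid), 0.190% (liver), 0.0360% (endothelium) and 0.0408% (bone and cartilage). Within 1 SD of the main value, those of skeletal muscle (0.0559%), brain (0.00896%), kidney (0.0115%), adipose (0.0121%) and intestine (0.00348%) also moved by over 1.5 times. Without the leading gene they were 2.42% (platelet), 0.0882% (myeloid), 0.0556% (lymphoid), 0.123% (liver) and 0.0573% (bone and cartilage), and the erythroid share was 5.79% without Hba-a2 and that of skeletal muscle 0.0582% without Ttn, both within 1 SD of the main value.

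None of the 26 comparisons had an adjusted p under 0.05, and some changed sign. Without the dominant genes the differences became -0.0918 (mitochondrial tRNA, AG), -0.15 (other small RNA, AG), 0.0606 (snoRNA and scaRNA, MG), 0.0690 (snRNA, MG) and 0.0936 (other small RNA, MG). With summed RPKM they became 0.0559 (nuclear mRNA, MG), 0.0715 (snoRNA and scaRNA, MG), 0.13 (snRNA, MG) and 0.88 (skeletal muscle, MG). Skeletal muscle turned to 0.40 against AG over all reads, and against MG to 0.0646 with at least 5 reads, 0.33 without the leading gene and 0.00213 as a share without log2. Without Mir6236, miRNA against MG became -0.64, and lymphoid against MG without the leading gene -0.0255. Causes were not tested.

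Leaving out each library gave ranges that crossed 0 against AG for mitochondrial tRNA (-0.11 to 0.64), other small RNA (-0.0263 to 0.28), liver (-1.005 to 0.14) and skeletal muscle (-0.40 to 0.21). Against MG they crossed 0 for nuclear mRNA (-0.18 to 0.00267), mitochondrial rRNA (-0.58 to 0.0406), snoRNA and scaRNA (-0.30 to 0.44), snRNA (-0.37 to 0.27), other small RNA (-0.22 to 0.10), myeloid (-0.00963 to 0.34) and skeletal muscle (-0.29 to 0.27).

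With the replicate number as a block (replicate block, 5 pairs), which also leaves out the sixth AG and MG library, snoRNA and scaRNA against MG became 0.44 and liver against AG 0.14. Leaving out that library without a block gave the same values. The adjusted p over the sign-flip permutations ranged from 0.325 to 1, with 0.0625 the smallest p they can give. Whether the numbers pair the samples could not be told. The correlation of same-numbered libraries ranged from -0.57 to 0.61 with AG and from -0.36 to 0.82 with MG. It was above 0.1 for 3 of 5 AG and 2 of 5 MG libraries, and differently numbered libraries were not compared.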
